A study of Homo sapiens with 6 samples.

Results

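The HOX genes encode homeodomain transcription factors that set position along the body axis, and in humans they lie in 4 clusters, HOXA, HOXB, HOXC and HOXD. Binding of the estrogen receptor ERα over 38 HOX genes was read from 6 lists of ChIP-seq peaks. A peak was taken when its summit lay inside the GRCh38 span of 1 of the 38 genes or within 10 kb of it. Peaks of the 6 lists that overlapped by at least 1 bp were merged into regions, which gave 49 HOX regions among 175206 regions on chromosomes 1 to 22 and X. Of the 49, 9 lay over HOXA, 11 over HOXB, 18 over HOXC and 11 over HOXD.

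The libraries came from MDA-MB-453 cells, an established breast cancer line with androgen receptor but no functional ERα of its own. The cells carried an inducible wild-type ERα, Y537S ERα or K303R ERα, and all 6 groups received 2 µg/mL doxycycline for 2 days to switch the receptor on. For each receptor, 1 library was made without and 1 with 1 nM estradiol (E2), in medium with 10% FBS. The Y537S change sits in the domain that binds hormone and gives a receptor that works without it, whereas K303R sits in the hinge. Chromatin was precipitated with the ERα antibody D8H8. The labels do not say whether each inducible line was 1 clone or how much receptor each made, and libraries without doxycycline were not analysed here. With 1 library per group there is no replicate spread, so every difference compares 2 libraries rather than 2 conditions, and no p-value is given. A tag in the form of a date, part of each peak's name, differs between the Y537S lists and the other 4, so receptor, cell line and tag cannot be told apart in a comparison of Y537S with wild type.

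Genes of a HOX cluster stand in a row that mirrors where along the body they act, and genes with the same number in different clusters are paralogs. Polycomb complexes keep unused HOX genes silent, and Trithorax proteins keep used ones on. The clusters also hold noncoding genes, among them HOTAIR, HOTTIP and HAGLR and the miRNAs of the miR-10 and miR-196 families, and several HOX genes have altered expression in breast cancer. ERα binds DNA mainly at enhancers through the estrogen response element. The peak lists hold no expression values, so whether any HOX gene was transcribed in these cells was not measured here.

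Of the 20 member genes with a RefSeq promoter window (26 windows of 300 bases, from 250 before to 50 after the start), only HOXD8 and HOXD1 held a peak summit in it. In HOXB only HOXB1 had a window, and in HOXC only HOXC4 and HOXC5. Most promoters of HOXB and HOXC were therefore not examined, and the windows cannot show whether promoter summits are particular to HOXD. The 250 bases before each start are shown because the HOXD8 site was highest in Y537S and the HOXD1 site was listed in Y537S alone. They are from RefSeq on GRCh38.p14, plus strand, at chr2:176129455-176129704 for HOXD8 and chr2:176188418-176188667 for HOXD1. Capitals mark matches to GCCNNNGGC, a motif of AP-2 factors that reads the same on both strands.
HOXD8: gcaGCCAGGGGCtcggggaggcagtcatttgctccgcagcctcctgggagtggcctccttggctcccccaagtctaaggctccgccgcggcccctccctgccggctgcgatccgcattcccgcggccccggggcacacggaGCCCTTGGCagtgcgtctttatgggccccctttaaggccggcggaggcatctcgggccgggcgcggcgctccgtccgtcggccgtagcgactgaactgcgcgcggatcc
HOXD1: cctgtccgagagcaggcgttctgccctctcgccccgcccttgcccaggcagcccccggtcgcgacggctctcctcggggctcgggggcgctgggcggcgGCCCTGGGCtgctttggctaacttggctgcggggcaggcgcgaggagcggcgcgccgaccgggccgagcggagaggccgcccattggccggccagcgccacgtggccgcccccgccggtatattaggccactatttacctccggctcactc

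Both promoters are rich in G and C. The HOXD8 window was 71.7% GC with 34 CpG and the HOXD1 window 74.3% GC with 36 CpG, against medians of 58.7% and 14 over all 34943 windows. The AP-2 matches lay at −247 to −239 and −109 to −101 from the HOXD8 start, and at −151 to −143 from the HOXD1 start, where −1 is the last base printed. This motif occurred in 10 of the 26 HOX windows (38.5%) and in 23.2% of all windows. None of the 26 held the estrogen response element, found in 0.0572% of all windows, while 1 arm of it, GGTCA, was in 11 (42.3%) and in 37.4% of all. TGTTTAC, bound by forkhead factors, was in 1 of the 26 (3.42% of all windows), and AGATAA, bound by GATA factors, in 2 (10.4%). TAATTA, bound by homeodomains, was in 2 (4.85%), TGANTCA, bound by AP-1, in 0 (7.72%) and the androgen response element in 0 (0.00286%). All 8 motifs were searched on both strands. A match describes the letters only. No motif other than AP-2 was found in the 2 printed stretches, so no match overlaps another.

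The clusters also encode the 2 miR-196 miRNAs, known to target HOX transcripts, and they are shown because both lie close to listed peaks and share a seed (bases 2 to 8, capitals).
hsa-miR-196a-5p: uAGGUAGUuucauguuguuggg
hsa-miR-196b-5p: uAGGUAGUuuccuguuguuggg
MIR196A2, a source of the former, lay 1294 bp from a region next to HOXC10 that is among the strongest of the HOX regions. MIR196B lay 1974 bp from a weak region inside HOXA10, listed in 5 of the 6 libraries with 10 to 15 fragments.

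Every library had peaks over the HOX clusters. The number was 32 without and 27 with E2 in wild type, 35 and 31 in Y537S, and 29 and 30 in K303R, from lists of 106186 to 125850 peaks. The 49 regions were modest in size. Each deposited fold and p-value gives back the whole number of DNA fragments at a peak's summit, and the highest summit of a HOX region had a median of 19 fragments against 24 over all regions. Their median width was 498 bp against 452 bp. Lists reached down to 5 or 6 fragments, so a region missing from a list may still have been bound weakly, and the absence of a listed peak is not a level of 0.

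**Figure D1:**
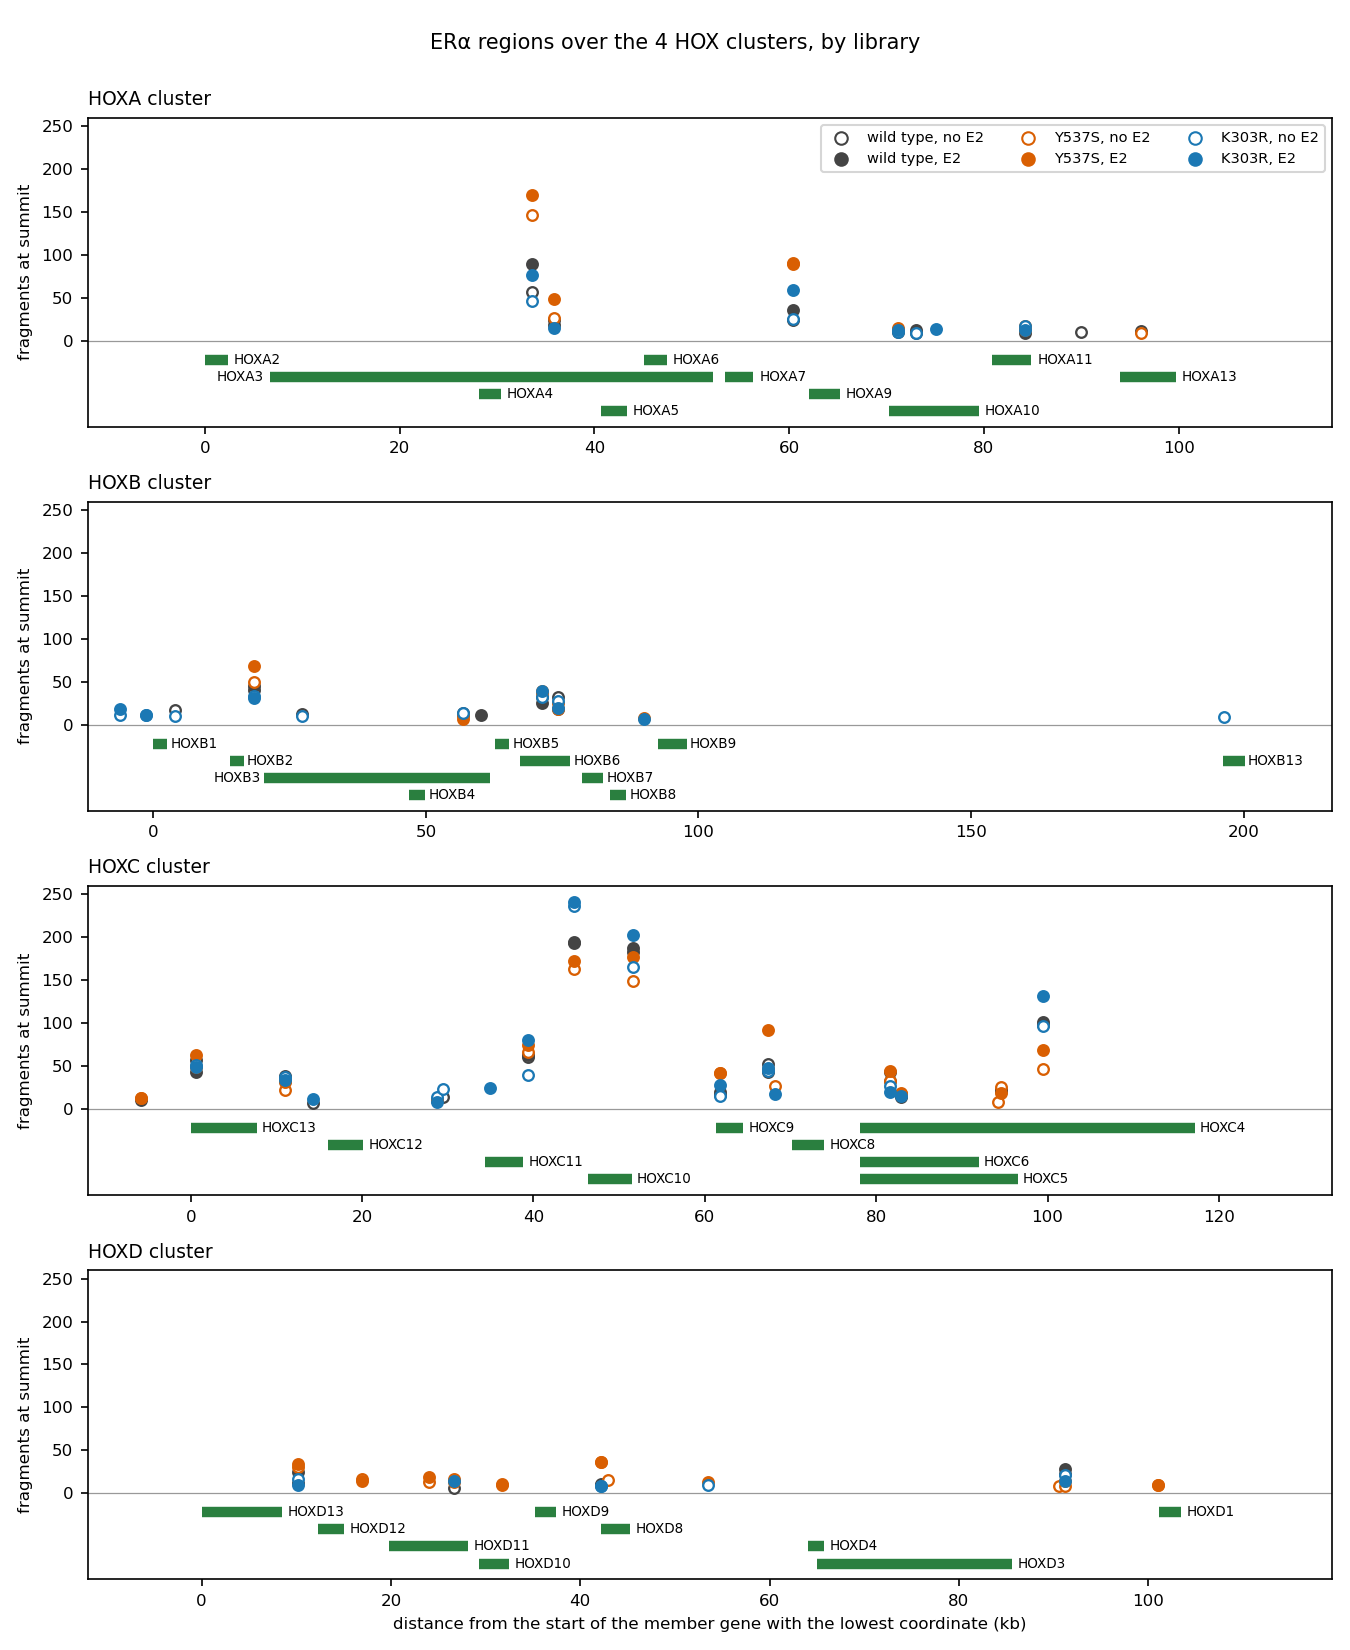
Fragments at the summit of every HOX region (y axis) against distance in kb along each cluster (x axis), with member genes as green bars below; open circles are libraries without E2 and filled circles with E2, in grey for wild type, orange for Y537S and blue for K303R. Each point is 1 library. The highest points are 2 HOXC regions with 149 to 241 fragments, followed by a HOXA region that reaches 170 in Y537S, and no HOXD point exceeds 36.

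HOXC was the most densely occupied cluster. It had 13.1 regions per 100 kb of window, against 7.52 in HOXA, 7.76 in HOXB, 8.91 in HOXD and 5.79 over the genome up to the last peak of each chromosome. In the 100 kb flanks HOXC had 11 regions on each side, HOXB 11 and 13, HOXA 1 and 5, and HOXD 4 and 2. Of the 49 regions, 18 were in all 6 lists (36.7%), which is close to the 38.7% of all regions. HOXC held 9 of these 18, and HOXA, HOXB and HOXD held 3 each. There were 8 regions in 1 list only (16.3%, against 21.7% of all regions).

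Sites lay about as often between genes as in them. The summit of 25 regions fell inside the span of a member gene, and 16 of the 38 genes held 1 or more. The gene table gives spans alone, so where a summit fell among exons, introns or UTRs was not examined. Within 10 kb, 36 of the 38 genes had a region (94.7%), and the exceptions were HOXA2 and HOXD4. Of all protein-coding genes, 89.5% had a peak within 10 kb in at least 1 library, so the HOX share is near that of all genes. A region common to all 6 lists lay within 10 kb of 31 genes. HOX genes lie close together, so neighbours share regions: HOXC4, HOXC5 and HOXC6 have overlapping spans, and the long span of HOXA3 covers HOXA4, HOXA5 and HOXA6.

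**Figure D2:**
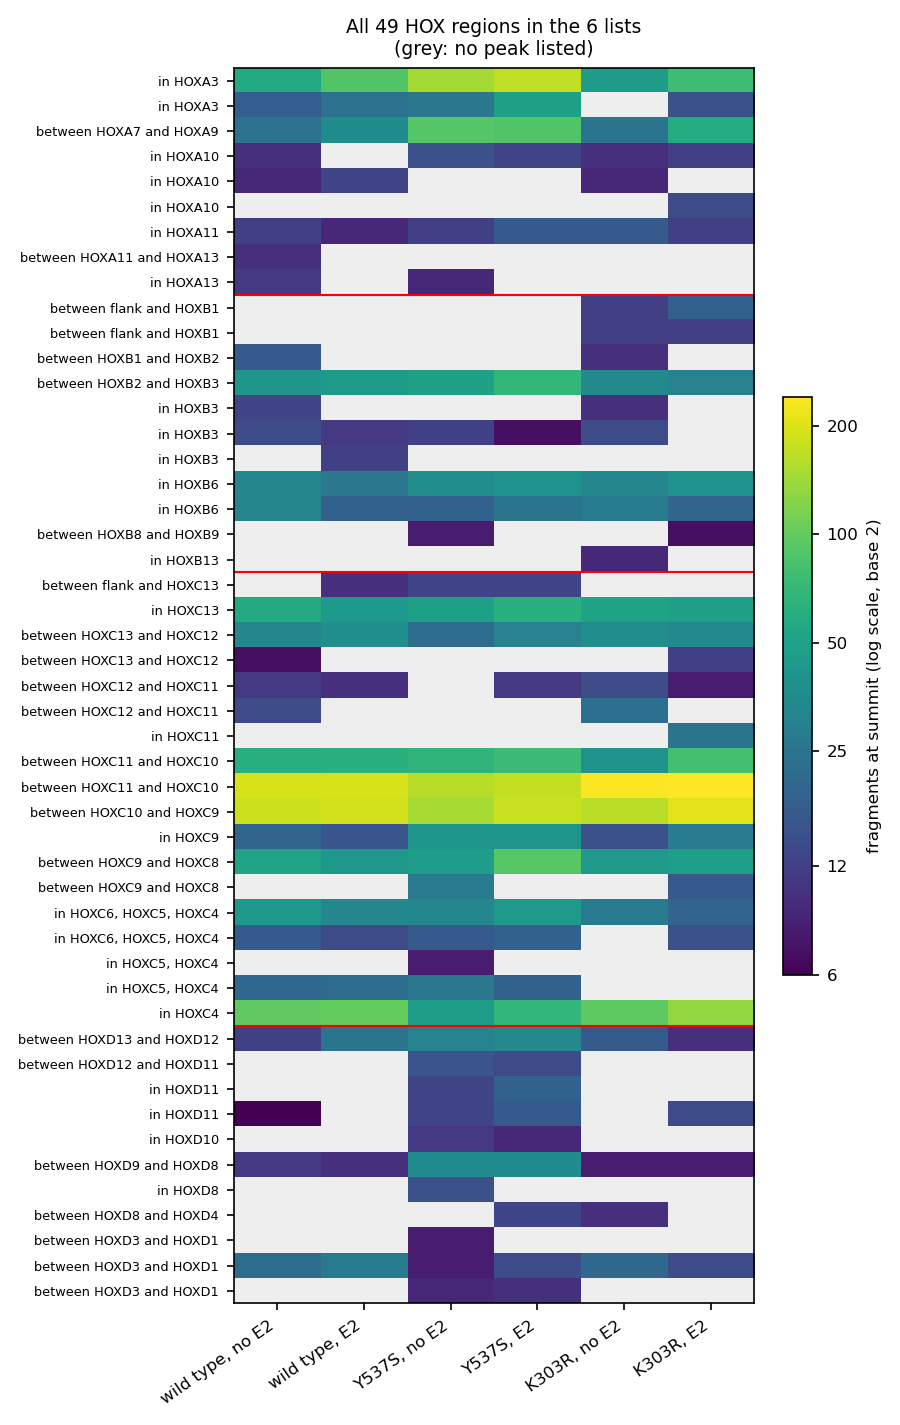
Fragments at the summit (color, log scale to base 2) for the 49 HOX regions (rows, in genome order, named by the member gene that holds the summit or the 2 genes around it) in the 6 libraries (columns); grey means that the library's list has no peak there, and red lines separate HOXA, HOXB, HOXC and HOXD from top to bottom. The brightest rows are in HOXC, and 4 HOXD rows are filled in both Y537S columns and in no other.

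Strong sites were about as frequent among HOX regions as among all regions. A strong peak is 1 of the 10000 with the highest −log10 p in its list, and 4 of the 49 regions held one in at least 1 library (8.16%, against 8.79% of all regions). These 4 lay within 10 kb of HOXA3, HOXA4, HOXA5, HOXC4, HOXC5, HOXC6, HOXC9, HOXC10 and HOXC11. A further filter, a listing in all 6 libraries with a mean of at least 50 fragments, gave 8 well-covered HOX regions, 2 in HOXA and 6 in HOXC (16.3%, against 19.2% of all regions). Counts and shares of calls rest on these 8. The call rule was also run without the minimum of fragments on the 18 HOX regions in all 6 lists, and calls or their absence at weaker regions come from that run. Ratios were divided by the median ratio over all 33626 well-covered regions. That median was 0.7527 for K303R over wild type without E2, 1.206 for E2 in K303R and 1.123 for E2 in Y537S. For the other comparisons it lay between 0.9121 and 1.052. Fragments given by library are not scaled in this way, so their order can differ from that of the ratios. A call needed a difference beyond 1.5-fold and an exact counting interval, at an error rate of 1 in 1000, that left out 1. Printed intervals are 95% and cover counting error only.

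The 2 strongest HOX sites flanked HOXC10, which is reported to respond to estrogen in breast cells. The first, at chr12:53983212-53983853, lay between HOXC11 and HOXC10, 1645 bp from HOXC10. It held 193 and 194 fragments in wild type without and with E2, 163 and 172 in Y537S, and 236 and 241 in K303R. The K303R libraries were the highest and the Y537S libraries the lowest, and within each receptor the unscaled values without and with E2 were close together. The E2 ratio was 0.992 (0.809 to 1.22) in wild type, 0.939 (0.754 to 1.17) in Y537S and 0.847 (0.705 to 1.02) in K303R. For K303R it was 1.09 when scaled by each library's lowest local background. The authors' fold over background was 16.6 to 19.8.

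The second, at chr12:53990217-53990810, lay 165 bp past the HOXC10 span. It held 183 and 188 fragments in wild type, 149 and 177 in Y537S, and 165 and 203 in K303R. In these unscaled fragments the Y537S library without E2 was lowest and the K303R library with E2 highest. Divided by the median ratio, K303R over wild type was 1.2 (0.965 to 1.49) without E2 and 1.18 (0.966 to 1.45) with E2. Both sites were strong in all 6 libraries. With E2 over without, the second site had a wild-type ratio of 1.01 (0.823 to 1.25), a Y537S ratio of 1.06 (0.846 to 1.32) and a K303R ratio of 1.02 (0.827 to 1.26). Scaled by each library's lowest local background, 1 value per library, the K303R ratio was 1.31.

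HOXC4 had a strong site in 1 library. At chr12:54038033-54038709, inside the HOXC4 span and 2973 bp from HOXC5, it held 98 and 101 fragments in wild type, 47 and 69 in Y537S, and 97 and 132 in K303R. Both Y537S values were below the other 4, and K303R with E2 was the highest and the strong one. The other 3 well-covered regions lay along the cluster. In the HOXC13 span, also that of HOXC13-AS, at chr12:53938584-53939858, there were 57 and 43 fragments in wild type, 49 and 63 in Y537S and 51 and 49 in K303R. At chr12:53977723-53978357, 522 bp from HOXC11, the values were 61 and 63, 67 and 75, and 40 and 80. Between HOXC9 and HOXC8, at chr12:54005958-54006529, they were 52 and 43, 47 and 92, and 44 and 48, so that Y537S with E2 stood above the other 5.

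The long noncoding gene HOTAIR, which lies between HOXC12 and HOXC11 and whose RNA is linked to Polycomb, had weaker summits inside it. At chr12:53967324-53967795 the 5 libraries that listed a peak held 8 to 14 fragments. At chr12:53968036-53968810 a peak was listed in the libraries without E2 of wild type (14 fragments) and K303R (23). At chr12:53973608-53973866, where HOTAIR overlaps HOXC11, it was listed in K303R with E2 only, at 25 fragments.

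**Figure D3:**
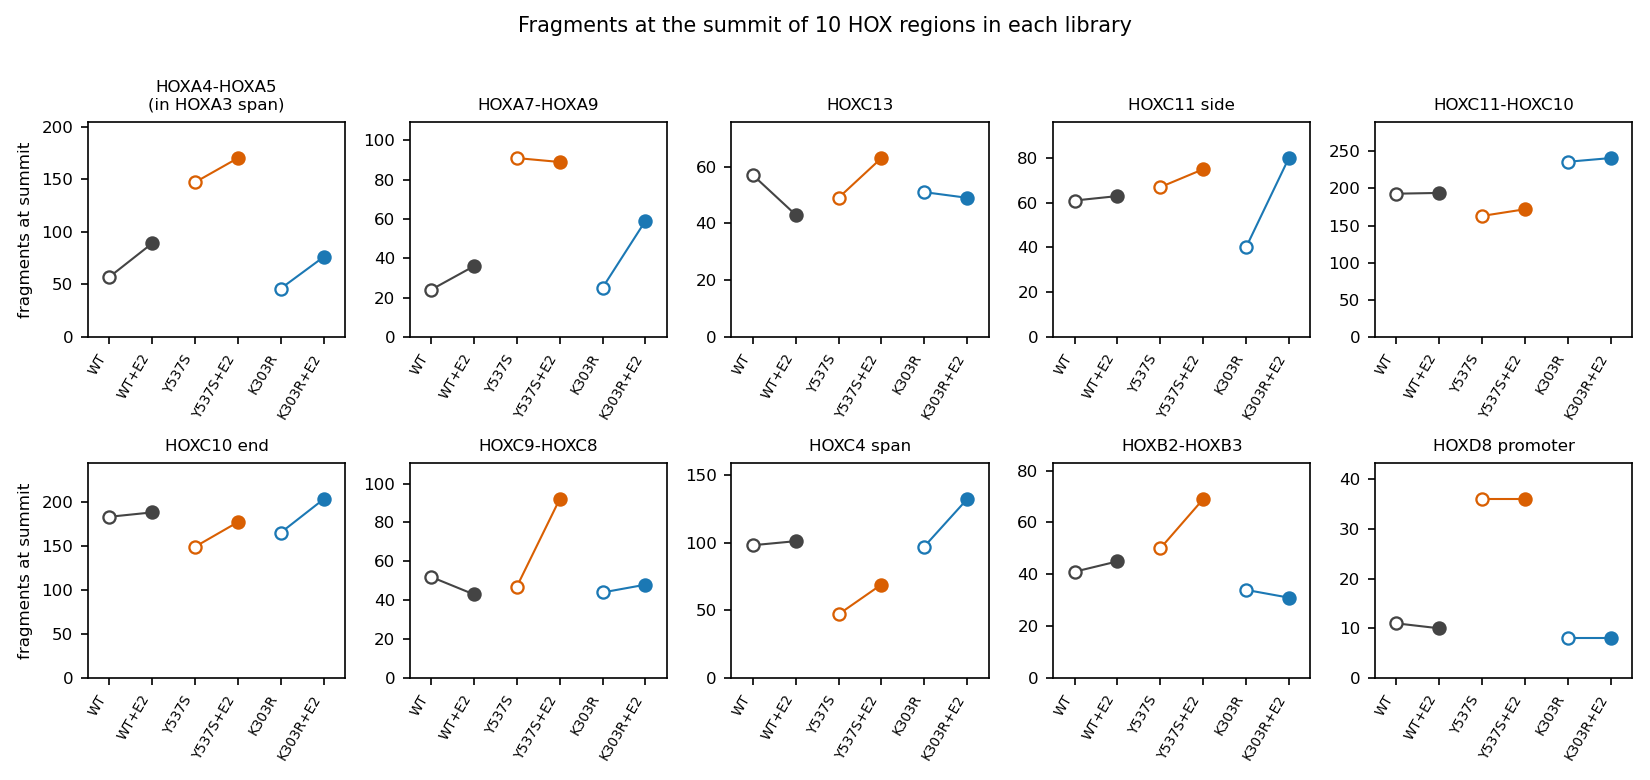
Fragments at the summit (y axis, from 0, scaled per panel) in each of the 6 libraries (x axis) at the 8 well-covered HOX regions and at the strongest HOXB region and the HOXD8 promoter; a line joins the libraries without (open) and with E2 (filled) of 1 receptor, and each point is 1 library. Y537S is highest in both HOXA panels and at the HOXD8 promoter, and lowest in the HOXC4 span. Fragments are not scaled between libraries.

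No HOX region was called with E2. For wild type, 1.66% of well-covered regions genome-wide were called higher with E2 and 0.607% lower. The shares were 0.0922% and 0.0743% for Y537S, and 2.48% and 0.803% for K303R. Of the 8 HOX regions, 0 were called in either direction for any receptor. At such rates 0 of 8 says little about the HOX regions. The 8 had a median log2 E2 ratio of 0.02 for wild type, 0.06 for Y537S and 0.10 for K303R, where the median of all regions is 0 by construction.

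Some intervals nevertheless left out 1 at the 95% level. In wild type the HOXA4-HOXA5 region described next had an E2 ratio of 1.54 (1.09 to 2.19). In K303R the HOXA7-HOXA9 region had 1.96 (1.21 to 3.26) and the region beside HOXC11 had 1.66 (1.12 to 2.49). In Y537S the HOXC9-HOXC8 region had 1.74 (1.21 to 2.53). None passed the rule for a call, and a different region led in each receptor. When ratios were scaled by each library's lowest local background instead, the 2 in K303R passed it, at 2.52 and 2.13.

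**Figure D4:**
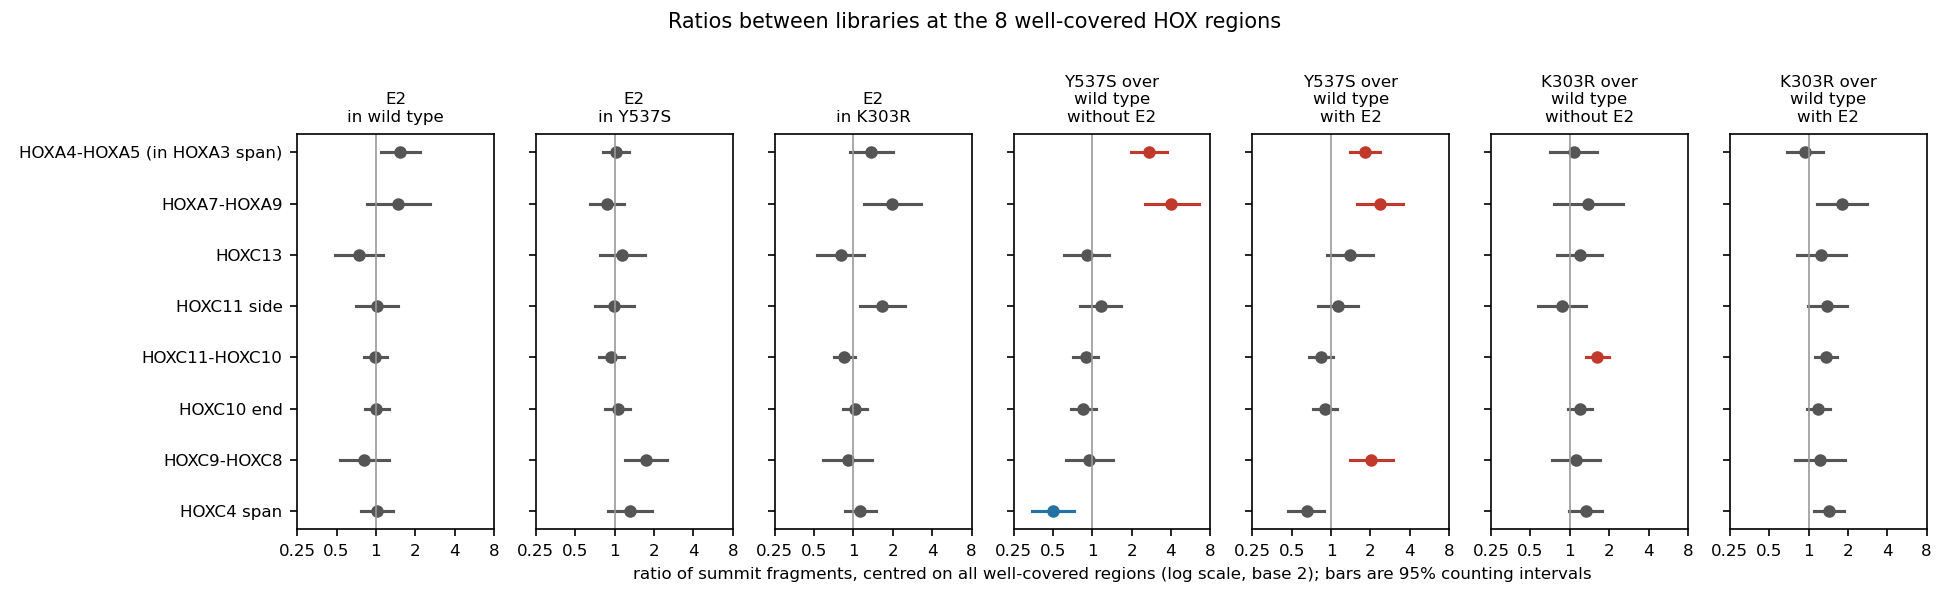
Ratio of summit fragments between 2 libraries (x axis, log scale to base 2, centred on all well-covered regions) at the 8 well-covered HOX regions (rows) in 7 comparisons (panels), with 95% counting intervals as bars; red points were called higher, blue lower and grey not called. Both HOXA regions are red in the 2 Y537S panels, at 1.82 to 3.99, and no E2 panel holds a colored point.

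In the HOXA cluster both well-covered regions were highest in Y537S, though the HOXA7-HOXA9 region passed the minimum of fragments only with Y537S included. The HOXA4-HOXA5 region, at chr7:27133580-27134248, lies inside the long HOXA3 span, 3178 bp from HOXA4 and 7117 bp from HOXA5, a gene often silenced in breast tumors. It held 57 and 89 fragments in wild type without and with E2, 147 and 170 in Y537S, and 46 and 76 in K303R. Both Y537S libraries lay above the other 4, and this site was strong in those 2 lists only. The authors' fold moved less, from 15.6 and 18.2 in wild type to 20.9 and 21.3 in Y537S, and the local background at the summit was 2.71 and 3.93 fragments in wild type and 6.08 and 7.02 in Y537S.

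The second HOXA region, at chr7:27160427-27161238, lies between HOXA7 and HOXA9, 1696 bp from HOXA9, a gene best known from leukemia. It held 24 and 36 fragments in wild type, 91 and 89 in Y537S, and 25 and 59 in K303R. Again both Y537S libraries lay above the other 4. The region's mean of 54 fragments passed the minimum for well-covered regions only because the Y537S libraries are included. That a region kept by this filter is highest in Y537S thus follows partly from the filter. In Y537S the E2 ratio was 0.871 (0.643 to 1.18), and at the HOXA4-HOXA5 region it was 1.03 (0.821 to 1.29).

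Set against wild type, both HOXA regions were called higher in Y537S in each treatment. The HOXA4-HOXA5 region had a ratio of 2.72 (1.99 to 3.75) without E2 and 1.82 (1.40 to 2.37) with E2. The HOXA7-HOXA9 region had 3.99 (2.52 to 6.55) and 2.35 (1.58 to 3.57). At the latter the authors' fold, which is relative to the local background, differed less, at 10.3 and 11.9 in wild type and 16 and 15.2 in Y537S, with a local background of 1.43 and 2.11 fragments in wild type and 4.75 and 4.92 in Y537S. In the 1 Mb on either side of the cluster, 34 well-covered regions had a median Y537S ratio of 0.902 without E2 and 0.894 with E2. The highest without E2 was 2.03, below both HOXA regions. The highest with E2 was 1.81, level with the HOXA4-HOXA5 region (1.82) and below the HOXA7-HOXA9 region. Just past the cluster, the same rule was applied without the minimum of fragments. A region 35279 bp from HOXA13, whose mean of 47.17 fragments is just under that minimum, was called higher in Y537S with E2 (2.27). A region 60324 bp from HOXA13, with a mean of 34.83, was called lower with E2 (0.395).

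In all, 2 of the 8 well-covered HOX regions were called higher in Y537S without E2 (25%, against 9.60% of all regions) and 1 lower (12.5%, against 7.53%). With E2, 3 were called higher (37.5%, against 7.81%) and 0 lower (6.82% of all). The members' median log2 ratio was −0.11 without E2 and 0.33 with E2. The third higher call was the HOXC9-HOXC8 region, at 2.03 (1.40 to 2.99) with E2 but 0.952 (0.628 to 1.44) without. The HOXC9-HOXC8 and HOXA7-HOXA9 regions, with means of 54.33 and 54 fragments, passed the minimum for well-covered regions only with Y537S included. They thus entered the 8 partly through the libraries in which they were called higher. The same filter applied to all regions, and the shares of higher calls depend in part on it. The lower call was the region in HOXC4, at 0.505 (0.349 to 0.722) without E2. With E2 its ratio was 0.650 (0.471 to 0.891), which was not called. Without E2 the ratio was 0.587 and no longer called when scaled by each library's lowest local background. The Y537S and K303R comparisons of 1 treatment share a wild-type library.

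K303R gave 1 call against wild type. Without E2, 1 of the 8 was called higher (4.52% of all regions were) and 0 lower (6.84%). With E2, 0 were called higher (5.18%) and 0 lower (9.05%). The call was the HOXC11-HOXC10 region, at 1.62 (1.34 to 1.98) without E2 and 1.36 (1.12 to 1.65), not called, with E2. The authors' fold without E2 was 18.5 in K303R and 19.8 in wild type, over a local background of 11.8 and 8.80 fragments. The call without E2 was lost, at 1.24, when ratios were scaled by each library's lowest local background (1.19 in K303R and 1.21 in wild type). That scale is 1 value per library, not the background at this site. The call was also lost when ratios were centred on regions within 5 Mb. At the 2 HOXA regions the K303R ratios were 1.07 and 1.38 without E2 and 0.936 and 1.80 with E2.

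HOXD, whose highest summit held 36 fragments, had more listed peaks in Y537S. Wild type had 4 HOXD peaks without and 3 with E2, Y537S had 10 and 9, and K303R had 4 and 4. With only peaks of −log10 q of at least 5 the counts were 3 and 3, 8 and 8, and 3 and 3. In the 1 Mb on either side, the Y537S lists had 61 and 56 peaks against 60 and 54 in wild type and 47 and 45 in K303R. Both Y537S lists and no other held 4 HOX regions, and all 4 were in HOXD (4 of 49 is 8.16%, against 2.31% of all regions).

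These 4 regions were weak. At chr2:176104264-176104636, between HOXD12 and HOXD11, there were 16 and 14 fragments in Y537S without and with E2. In HOXD11, at chr2:176111295-176111654, there were 13 and 19. In HOXD10, a gene known as a target of miR-10b, there were 11 and 9 at chr2:176118772-176119383. The fourth was the HOXD1 promoter, at chr2:176188258-176188842, with 9 and 10 fragments and summits 16 bp after the start without E2 and 91 bp before it with E2. The summit with E2 lies within the bases printed above, and a promoter window of the antisense gene HAGLR overlaps that stretch.

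A region at the HOXD8 promoter was listed in all 6 libraries, with the summit inside the window of 300 bases in 5. It held 11 and 10 fragments in wild type, 36 and 36 in Y537S, and 8 and 8 in K303R, at chr2:176129430-176130220. Both Y537S values stood above the other 4. The Y537S summits lay 35 and 67 bp before the start, inside the printed stretch, those of wild type 5 bp after and 111 bp before it, and that of K303R with E2 130 bp before it. The K303R summit without E2 lay past the window. Set against wild type, Y537S had a ratio of 3.45 (1.72 to 7.51) without E2 and 3.42 (1.66 to 7.73) with E2. The authors' fold there was 5.43 and 5.10 in wild type and 9.91 and 10.8 in Y537S, over a local background of 1.21 and 1.15 fragments in wild type and 2.73 and 2.42 in Y537S. The region is too weak to be well covered. Without that minimum both ratios passed the call rule, as did 6.61% and 5.57% of the 67735 regions in all 6 lists.

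The other 2 HOXD regions in all 6 lists did not share 1 direction. Between HOXD13 and HOXD12, at chr2:176097298-176098103, there were 12 and 25 fragments in wild type, 31 and 34 in Y537S, and 17 and 10 in K303R. The Y537S libraries were highest, with a ratio of 2.72 (1.36 to 5.82) without E2 and 1.29 (0.749 to 2.26) with E2, neither called. In the noncoding genes HAGLR and HAGLROS, between HOXD3 and HOXD1 at chr2:176178451-176178977, there were 22 and 28 fragments in wild type, 8 and 14 in Y537S, and 21 and 14 in K303R. Here the Y537S library without E2 was the lowest, with a ratio of 0.383 (0.147 to 0.893), and with E2 it was 0.475 (0.231 to 0.934), neither called.

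HOXB held no strong and no well-covered region within 10 kb of its genes. Its highest site, at chr17:48546700-48547449 in HOXB-AS1 between HOXB2 and HOXB3, held 41 and 45 fragments in wild type, 50 and 69 in Y537S, and 34 and 31 in K303R. The 2 next lay in the HOXB6 span, which HOXB-AS3 overlaps. At chr17:48599530-48600027 there were 33 and 26 fragments in wild type, 37 and 40 in Y537S and 33 and 40 in K303R, and at chr17:48602621-48602994 there were 32 and 19, 19 and 25, and 28 and 20. At these 3 sites no ratio was called in any comparison, with or without the minimum of fragments.

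Both K303R lists and no other held 2 HOX regions (4.08%, against 1.51% of all regions), and both lay next to HOXB1, a hindbrain gene. They held 12 and 19 fragments at chr17:48522155-48522626 and 12 and 12 at chr17:48526861-48527377. No HOX region was in both wild-type lists alone (0 of 49, against 2.23% of all regions). HOXB13, a prostate lineage gene whose level is used as a marker in tamoxifen-treated breast cancer, had 1 region, listed in K303R without E2 only, at 9 fragments.

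The remaining HOXA and HOXC regions were weaker. A second site in the HOXA3 span, at chr7:27135916-27136317, held 18 and 24 fragments in wild type, 26 and 49 in Y537S, and 15 in K303R with E2, with no peak listed in K303R without E2. The HOXA11 region in all 6 lists, at chr7:27184241-27184971, held 9 to 17 fragments. In HOXC9, at chr12:54000255-54000911, there were 20 and 16 fragments in wild type, 42 and 42 in Y537S, and 15 and 28 in K303R. Its Y537S ratios of 2.21 (1.27 to 3.98) and 2.50 (1.37 to 4.76) were not called. In the shared span of HOXC6, HOXC5 and HOXC4, at chr12:54020114-54020690, there were 43 and 33 fragments in wild type, 33 and 44 in Y537S, and 27 and 20 in K303R, with Y537S ratios of 0.808 and 1.27. Between HOXC13 and HOXC12, at chr12:53949472-53950008, there were 33 and 38, 22 and 31, and 37 and 34, with Y537S ratios of 0.702 and 0.776. At these 2 sites Y537S was not higher in both treatments.

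Several genes that work with HOX proteins had strong sites. PBX, MEIS and PKNOX proteins are homeodomain partners that bind DNA with HOX proteins. Of 9 such genes, 6 had a strong peak within 10 kb in at least 1 library, and MEIS2 and PKNOX2 were among those with one in all 6. The highest MEIS2 summit held 306 and 288 fragments in wild type, 271 and 288 in Y537S, and 208 and 259 in K303R. MEIS1 had one in 4 libraries and PBX4 and PKNOX1 in 1 each. Of the 38 HOX genes 9 had such a peak (23.7%), against 31.1% of 19974 protein-coding genes, whose median length is 24170 bp against 3786 bp for HOX genes.

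Of 19 Polycomb, Trithorax and related genes that act on HOX clusters, 5 had a strong peak within 10 kb in at least 1 library (26.3%, against the 31.1% of all protein-coding genes). Among them were CTCF, the insulator protein that divides the clusters, and DOT1L, a histone H3 methyltransferase, in all 6, EZH2, the Polycomb methyltransferase, in 5, and KMT2B in 2. Of 22 other homeobox genes of the same class only GBX1 had one, in 1 library (4.55%, against the same 31.1%). Gene length was not matched in these shares. Of 21 noncoding genes of the HOX clusters 8 had one (38.1%, against 31.1% of protein-coding genes). They were HOTAIR, HOXC-AS1, HOXC-AS2, HOXC-AS3 and MIR196A2 in all 6, HOXA-AS2 and HOXA-AS3 in both Y537S libraries and MIR615 in 1. These are the same few sites as described for HOXC10, HOXC4 and HOXA4, shared between neighbouring genes.

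The choice of 10 kb set which peaks were counted. The farthest summits inside the window lay 8256 bp from HOXD8 (Y537S with E2, 13 fragments) and 8148 bp from it (K303R without E2, 10 fragments). The nearest outside lay 11500 bp (wild type with E2, 10 fragments) and 11709 bp (Y537S without E2, 8 fragments) from HOXD13.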

How the data were processed

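ChIP-seq peak lists of 6 libraries were analysed, 1 per group, grouped by the sample titles. Per the submitters' processing notes, the build was hg38 and the tools included MACS2, Bowtie2, SAMtools, Picard and bedtools. The sources used here give no versions, control library or peak threshold. For each peak the deposited lists give a fold enrichment (a ratio to local background), −log10 p and q values, and a score, which was not used. Total reads are not in the lists, so sequencing depth is unknown. Whole summit fragments were solved from the authors' fold, which has a pseudocount of 1, and Poisson p, and matched the deposited p to within 0.01% for 100% of peaks.

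Libraries were compared at merged regions with exact conditional binomial intervals, centred on the median ratio over all 33626 well-covered regions. The rule was also run on simulated Poisson counts, which hold counting error only. That run cannot show how the calls behave under spread between replicate libraries. Alternatives changed the window, peak threshold, merging, scaling, minimum of fragments and call rule. Regions named are the 3 highest of each cluster, those called, those in a promoter window, and others described by position that were chosen after their values were seen. The members and gene lists were chosen with earlier results of these data known. A few genes of these lists are not reported here by name. All 38 members and the genes of the 4 related lists matched RefSeq's GRCh38.p14 table. Python 3.11.15, numpy 2.4.6, pandas 2.3.3, scipy 1.17.1 and matplotlib 3.10.9 were used.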

Additional observations from a re-analysis of the deposited data

How the results depend on the processing

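No paired analysis was possible because each group has 1 library and the labels give no replicate numbers. Of the counts recomputed under an alternative, 95 were within 1.5 times the value reported and 20 were not. Many of the 95 are numbers of calls that were 0 and stayed 0. With only summits inside a gene span, peaks numbered 18 and 15 in wild type without and with E2, 20 and 16 in Y537S, and 14 and 14 in K303R, with 27 regions, 9 of them in all 6 lists. With the 5000 strongest peaks of each list, 2 HOX regions were strong. With a 95% interval, E2 gave 1 higher call for wild type, 1 for Y537S and 2 for K303R, K303R over wild type with E2 gave 1 higher call, and Y537S over wild type with E2 gave 1 lower call. With ratios scaled by each library's lowest local background, E2 in K303R gave 2 higher calls. Under that scaling the lower call in Y537S without E2 and the higher call in K303R without E2 fell to 0. Both also fell to 0 at 2-fold, and the K303R call fell to 0 when centred within 5 Mb of the cluster. That centring and the runs without a minimum of fragments were chosen after seeing the data. Against the median centring, the background scaling shifts the median log2 ratio of all regions by 0.36 for E2 in K303R, 0.22 and 0.12 for Y537S over wild type without and with E2, and −0.39 for K303R over wild type without E2, and by at most 0.09 in size in the other 3 comparisons. The cause of these differences was not tested. The 4 higher calls of both HOXA regions in Y537S held when ratios were scaled by each library's lowest local background or centred on the same chromosome. The background at the sites themselves, which was higher in Y537S than in wild type, was not used as a scale. At 2-fold the higher calls in Y537S with E2 numbered 2 in place of 3, since the HOXA4-HOXA5 ratio is 1.82. Regions of about 10 fragments have ratio intervals several-fold wide, so only large differences could be called at them.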

Other observations

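The strongest region within the span of the HOXB cluster lay in the gene-poor gap between HOXB9 and HOXB13, outside the window of 10 kb. At chr17:48712187-48713134, 11873 bp from HOXB13, it held 240 and 269 fragments in wild type without and with E2, 223 and 212 in Y537S, and 171 and 232 in K303R, and was strong in all 6 libraries. None of its 7 ratios was called. The next region, at chr17:48710871-48711382, held 111 and 114 fragments in wild type, 69 and 87 in Y537S, and 43 and 54 in K303R. Its K303R ratios of 0.515 without E2 and 0.519 with E2 were both called lower. The gap held 7 regions in all, of which 2 were in all 6 lists.

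The HOXA cluster also had a strong site outside it, at chr7:27277527-27278082, 77670 bp past HOXA13. There the libraries held 215 and 188 fragments in wild type, 159 and 195 in Y537S, and 163 and 176 in K303R, with no ratio called. On the other side of HOXB, at chr17:48499817-48500589, 28247 bp from HOXB1, wild type held 98 and 83 fragments, Y537S 46 and 24, and K303R 94 and 106. Here Y537S was called lower than wild type, at 0.494 without E2 and 0.275 with E2, so Y537S libraries were not higher at every region near a HOX cluster. Other flank regions went either way. Beside HOXC, Y537S was called higher at chr12:54138961-54139480 (2.3 without and 2.53 with E2). It was called lower without E2 at chr12:53855924-53856412 (0.292), a weak region with a mean of 17 fragments. Beside HOXB, Y537S was called higher with E2 at chr17:48440062-48440826 (1.63). No genome sequence was used here, so the letters under these regions are not shown.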
